A study of Mus musculus with 18 samples.

Results

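Activins and bone morphogenetic proteins (BMPs) signal through paired receptor kinases, and 8 genes for these receptors were measured in regulatory T cells (Tregs) with and without CD25, the alpha chain of the IL-2 receptor. They comprise 5 type I receptors (Acvr1, Acvr1b, Acvr1c, Acvrl1 and Bmpr1a) and 3 type II receptors (Acvr2a, Acvr2b and Bmpr2), out of 50600 genes in the count table. The group was chosen from measured values: in earlier results of these data, members differed between CD25 KO and WT Tregs in opposite directions in thymus and spleen, or in 1 tissue. Levels and fold changes of the 8 genes between CD25 KO and WT Tregs are therefore given as a description, with no test. The mean difference between spleen and thymus was not used in that choice and was tested.

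RNA-seq gene counts covered FACS-purified Tregs of 18 C57BL/6 mice. Thymic CD25 KO Tregs came from 5 CD25 flox/Foxp3-YFP/Cre mice, in which the Cre is driven by the Foxp3 locus and which had been "cured" of autoimmunity by WT splenocytes injected into the vein of the newborn. Thymic WT Tregs came from 5 Foxp3/RFP mice, which carry a different Foxp3 reporter allele and for which the labels name no transfer of cells, and both thymic groups were 3 to 4 weeks of age. The splenic CD25 KO group had 4 CD25 flox/Foxp3eGFP-Cre-ERT2/R26Y animals and the splenic WT group 4 CD25 WT reporter animals, all given tamoxifen at 7 to 10 weeks of age and sampled 10 to 14 days later. Deletion of CD25 therefore followed the onset of Foxp3 expression in the thymic model and tamoxifen, days before sampling, in the splenic model. In both it was limited to Foxp3-expressing cells. The paper still found CD25 on a reduced part of the Foxp3-positive thymocytes of CD25 flox/Foxp3-YFP/Cre mice. Tissue, mouse model, age, tamoxifen and the date in the column headers of the count table changed together, so their parts in any difference between thymus and spleen cannot be told apart.

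In this receptor family a ligand brings type II and type I receptors together. The type II kinase phosphorylates the type I receptor in its glycine- and serine-rich GS box, and the activated type I kinase then phosphorylates SMAD proteins, which enter the nucleus with SMAD4. ACVR1B (ALK4) and ACVR1C (ALK7) act on the activin-type SMAD2 and SMAD3, whereas ACVR1 (ALK2), ACVRL1 (ALK1) and BMPR1A (ALK3) act on the BMP-type SMAD1, SMAD5 and SMAD9. ACVR2A and ACVR2B bind activins and several BMPs, and BMPR2 binds mainly BMPs. In T cells the related TGF-beta receptors are best known, and TGF-beta signals are needed for Foxp3 induction outside the thymus.

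The GS box is what sets the 5 type I genes apart from the 3 type II genes, so its coding sequence is shown for each. A run of codons for glycine-serine-glycine-serine-glycine was searched in the coding sequence of 1 GENCODE M21 transcript per gene (GRCm38). It was found once in each type I gene and in 0 of the 3 type II genes. Capitals mark the codons of the run, read 5′ to 3′ on the coding strand.
Acvr1: acatcaGGAAGTGGCTCCGGTcttcctttc
Acvr1b: acgtcaGGGTCTGGCTCAGGGttacccctt
Acvr1c: gcctctGGCTCAGGCTCTGGTctgcctctc
Acvrl1: actacgGGCAGCGGCTCGGGGctccccttc
Bmpr1a: agctctGGGAGTGGATCTGGAttgccttta

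The Acvr1 stretch lies in exon 8 at chr2:58474222-58474251 on the minus strand, the Bmpr1a stretch in exon 8 at chr14:34429659-34429688 on the minus strand, and the Acvrl1 stretch in exon 6 at chr15:101136149-101136178 on the plus strand. In Acvr1b (chr15, plus strand) and Acvr1c (chr2, minus strand) the stretch crosses the junction of exons 3 and 4. The same amino acids are written with different codons in each gene. Over the 28 pairs of members, the longest run of identical bases in the exons was 12 to 20 bases, less than the 75-base reads.

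The count totals were 17239774 to 23993674 in the thymic and 25258341 to 32639570 in the splenic samples, and 3 counts, the smallest level taken as detectable, were at most 0.163 CPM in the thymus and 0.129 CPM in the spleen. CPM are counts relative to library size, with libraries scaled by TMM over all 18 samples. Il2ra, which encodes CD25 and of which only exon 4 is deleted, was 524 to 682 CPM in thymic WT and 95.9 to 280 CPM in thymic CD25 KO Tregs, and 488 to 539 against 168 to 208 CPM in the spleen. With edgeR's quasi-likelihood F test and Benjamini-Hochberg adjustment, its log2 fold change was -1.90 in the thymus (adjusted p = 0.00239) and -1.49 in the spleen (adjusted p = 1.39e-09). Thymic CD25 KO replicates 2 and 4 stood apart, with 280 and 234 CPM of Il2ra and 506 and 347 CPM of the proliferation gene Mki67, against 95.9 to 105 CPM and 69.1 to 105 CPM in the other 3 mice. Thymic fold changes of the receptors and of named pathway genes are given with and without these mice. Thymic log2 fold changes decreased with GC content (Spearman's rho of -0.40 across 16945 genes, not independent of each other), and splenic ones did so more weakly (rho of -0.17). Treg markers (8 genes, Foxp3 included) summed to 3170 to 4540 CPM in all 18 samples. Foxp3 itself was 400.0 to 578 CPM in WT and 270.0 to 336 CPM in CD25 KO Tregs of the thymus, and 322 to 345 against 204 to 239 CPM in the spleen, so that it was lower without overlap in both.

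In the thymus 16986 genes were tested, of which 6.16% were called at FDR 0.01, and in the spleen 9.45% of 17463. Of the 8 receptors, all were tested in the thymus and 7 in the spleen, where Acvr2b failed the filter on low counts. One, Acvr2a, was past the threshold in the thymus, and 4 were past it in the spleen, with Bmpr1a higher and Acvr1b, Acvr1c and Acvrl1 lower in CD25 KO Tregs. The CD25 KO and WT ranges did not overlap for 2 receptors in the thymus, against 16.4% of all genes tested, and for 6 in the spleen, against 20.4%. Spleen and thymus differed in the CD25 KO effect at FDR 0.01 for Acvr1 and Acvr1c, against 6.98% of 18686 genes. Since these contrasts were used to choose the receptors, nothing is read from these counts. In bulk RNA, fewer cells with a transcript and less transcript per cell cannot be told apart. According to the paper, CD25-deficient Tregs shifted to a central phenotype in the thymus and to an effector phenotype in the periphery. Its authors could not exclude that opposite changes of Th1 and Th2 pathway genes in the 2 tissues reflect this shift. The part of the shift in the levels given here was not tested.

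**Figure D1:**
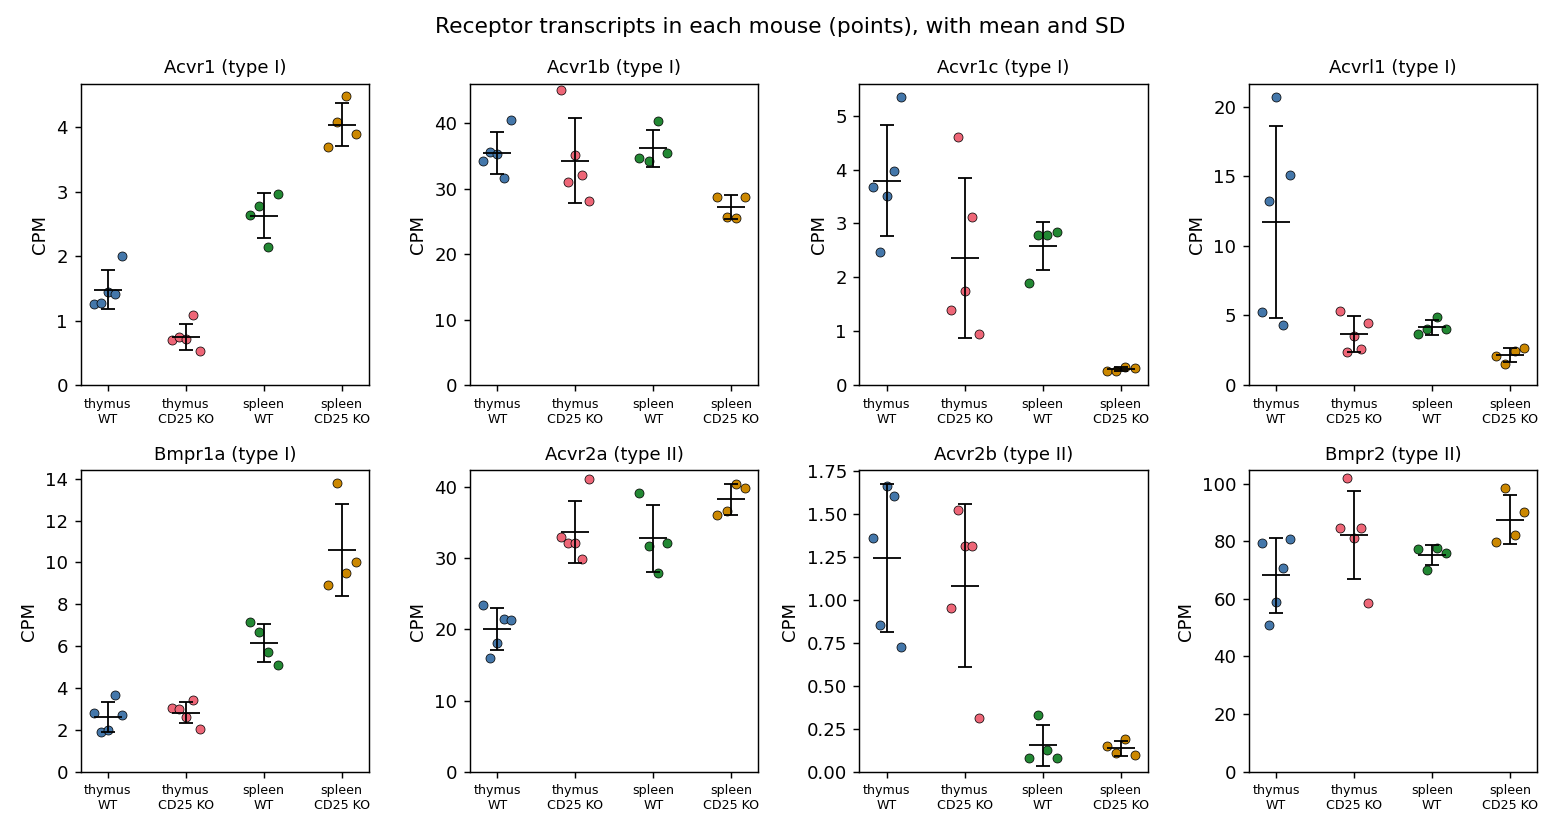
Level in CPM (y axis, from 0) of each of the 8 receptors in each mouse, by tissue and genotype. Points are mice, horizontal bars the mean and whiskers the SD (n = 5, 5, 4 and 4 mice). Acvr1 was lower in thymic and higher in splenic CD25 KO than in WT Tregs, and Acvr1c in splenic CD25 KO Tregs was 0.253 to 0.342 CPM.

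Acvr1c encodes ALK7, a type I receptor for activin B, nodal and related ligands. Its gene (ENSMUSG00000026834.13) lies at chr2:58267453-58357895 on the minus strand. In splenic WT Tregs it was measured at 1.90, 2.78, 2.79 and 2.84 CPM in replicates 1 to 4, and in splenic CD25 KO Tregs at 0.266, 0.253, 0.342 and 0.317 CPM. The ranges did not overlap, and the values rest on 49 to 76 counts per WT mouse and 7 to 10 counts per CD25 KO mouse. The log2 fold change was -3.11 (SE 0.248), from -3.23 to -3.04 when each mouse was left out. This was the lowest level of the 8 receptors in splenic CD25 KO Tregs per length of transcript, together with Acvr2b.

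In the thymus, Acvr1c was 3.68, 2.47, 3.50, 3.98 and 5.34 CPM in WT and 1.40, 4.61, 1.74, 3.11 and 0.945 CPM in CD25 KO Tregs. The groups overlapped because of CD25 KO replicates 2 and 4, the mice with higher Il2ra, while the other 3 CD25 KO mice lay below all WT mice. The log2 fold change was -0.65 (SE 0.363) with all mice and -1.47 (SE 0.287) without these 2 mice. The part of these mice's cell composition or cycling in their Acvr1c level was not tested. The difference between tissues (spleen minus thymus, log2) was -2.44 (SE 0.527) and, without these 2 mice, -1.63. An antisense gene, Gm13544, shares 1.81% of the exonic bases of Acvr1c on the opposite strand, and the strand setting of the counting was not given in the sources used here.

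**Figure D2:**
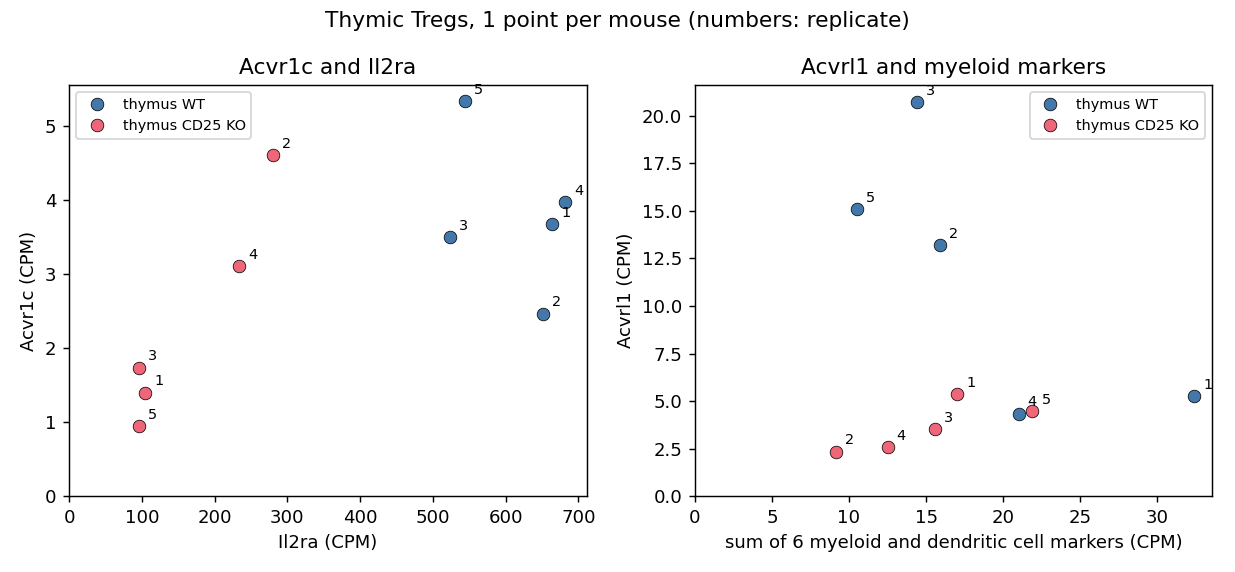
Left, Acvr1c against Il2ra, and right, Acvrl1 against the summed level of 6 myeloid and dendritic cell markers, all in CPM from 0, in the 10 thymic samples. Each point is 1 mouse with its replicate number. CD25 KO mice 2 and 4 have more Il2ra (280 and 234 CPM) and more Acvr1c (4.61 and 3.11 CPM) than the other 3 CD25 KO mice. WT mice 1 and 4 have the lowest Acvrl1 and the highest marker sums of the WT mice. CD25 KO mice 1 and 5 have the highest Acvrl1 and the highest marker sums of the CD25 KO mice. The sum of mouse 5 holds 10.1 CPM of Lyz2, 1 of the 6 markers, against 0.163 to 1.04 CPM in the other CD25 KO mice. Its Itgax, another of these markers, is the lowest of the CD25 KO mice at 0.263 CPM.

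Acvr1c has 2 promoters in the RefSeq table (GRCm38.p6), whose 300-base windows around the annotated start differ in CpG content. The window at the first start holds 39 CpG dinucleotides, at least as many as 96.1% of the 32851 promoters in the table. That at the second start, inside the gene, holds 2. Gene counts do not tell which start was used. The bases upstream of the first start that lie outside annotated exons are shown because Acvr1c had the largest splenic fold change of the 8. They are chr2:58357896-58358008, read 5′ to 3′ on the minus strand, with CpG in capitals.
Acvr1c upstream: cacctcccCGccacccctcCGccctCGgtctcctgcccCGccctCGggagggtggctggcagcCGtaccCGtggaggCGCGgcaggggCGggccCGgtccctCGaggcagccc

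Of the 8 receptors, 7 had a promoter in the RefSeq table. Their CpG counts per 300 bases ranged from 23 in Bmpr2 and 27 in Acvr2b to 54 in Acvr2a, leaving aside the second start of Acvr1c, where the median of all promoters was 7. TTCNNNGAA, the letters of the STAT motif called GAS, was searched because the IL-2 receptor signals through STAT5, and it was in 8.30% of all promoters and in none of the 7 genes' windows. GGCGCC, a GC-rich BMP motif, was in the windows of Acvr1b, Bmpr1a and Bmpr2 and in 11.9% of all promoters. The SMAD palindrome GTCTAGAC (0.213% of promoters) and TATAAA (13.6%) were in none. Both strands were searched, and a match or its lack describes these windows only.

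Acvr1 encodes ALK2, a type I receptor for BMPs, and lies next to Acvr1c on the same strand (ENSMUSG00000026836.15, chr2:58388644-58567157), 30.7 kb away with 0 protein-coding genes in between. In thymic WT Tregs it was 1.26, 1.28, 1.44, 1.42 and 2.01 CPM, and in thymic CD25 KO Tregs 0.700, 0.738, 0.708, 1.08 and 0.525 CPM. All 5 thymic CD25 KO values were below the lowest WT value. In splenic WT Tregs it was 2.64, 2.78, 2.14 and 2.96 CPM, and in splenic CD25 KO Tregs 3.69, 4.08, 4.48 and 3.89 CPM. Here all 4 CD25 KO values exceeded the highest WT value, so that the direction was opposite to that in the thymus.

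The log2 fold change of Acvr1 was -0.95 (SE 0.229) in the thymus and 0.61 (SE 0.152) in the spleen. Their difference was 1.58 (SE 0.261). Without thymic CD25 KO replicates 2 and 4 the thymic value was -1.19 and the difference 1.81. In neither tissue did Acvr1 pass FDR 0.01 in its own comparison with the main settings. It passed in both with DESeq2. In the thymus it also passed in a fit of all 18 samples, without CD25 KO replicate 4, and without these 2 mice, an exclusion made after the data had been seen. In the spleen it also passed with no filter on low counts and with the GC trend removed. Since the receptors were chosen from these contrasts, no support is read from such calls. Acvr1 and Acvr1c were both lower in thymic CD25 KO Tregs by mean, and in the spleen the neighbouring genes differed in opposite directions.

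Bmpr1a encodes ALK3, the type I receptor for BMP2 and BMP4 (ENSMUSG00000021796.14, chr14:34410734-34503341, minus strand). In splenic WT Tregs it was 7.13, 6.67, 5.70 and 5.12 CPM, and in splenic CD25 KO Tregs 8.94, 13.8, 9.49 and 10.0 CPM. The groups did not overlap, and the log2 fold change was 0.78 (SE 0.146). In the thymus it was 2.81, 1.91, 1.98, 3.66 and 2.73 CPM in WT and 3.05, 3.00, 2.61, 3.42 and 2.05 CPM in CD25 KO Tregs. The thymic groups overlapped almost wholly, with a log2 fold change of 0.13 (SE 0.207) that was -0.07 after removal of the GC trend and -0.02 without CD25 KO replicates 2 and 4. Gm17110 shares 4.57% of the exonic bases of Bmpr1a on the opposite strand.

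In the spleen, 3 NK cell markers summed to 0.476 to 2.60 CPM in WT and 3.15 to 5.84 CPM in CD25 KO samples. In each splenic group 2 of the 3, with Ncr1 at 0, had at most 3 counts in every sample. The NK cell sum thus rested on the remaining marker. The 6 myeloid and dendritic cell markers summed to 17.2 to 23.5 CPM in WT and 21.97 to 29.1 CPM in CD25 KO samples. These sums moved in the same direction as Bmpr1a and Acvr1, and their part in these levels was not tested.

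Acvrl1 encodes ALK1, a type I receptor best known in endothelial cells, where it binds BMP9 and BMP10 (ENSMUSG00000000530.16, chr15:101128522-101145336, plus strand). In thymic WT Tregs it was 5.28, 13.2, 20.7, 4.34 and 15.1 CPM, and in thymic CD25 KO Tregs 5.35, 2.35, 3.54, 2.57 and 4.46 CPM. The WT mice fell into 2 sets, with replicates 1 and 4 at the level of the CD25 KO mice and replicates 2, 3 and 5 well above them. The log2 fold change of -1.67 (SE 0.402) was -1.39 without CD25 KO replicates 2 and 4 and ranged from -1.88 to -1.36 when each mouse was left out. In the spleen, Acvrl1 was 3.64, 4.03, 4.88 and 4.06 CPM in WT and 2.09, 1.52, 2.43 and 2.69 CPM in CD25 KO Tregs. The splenic groups did not overlap, and the log2 fold change was -0.92 (SE 0.183).

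Since Acvrl1 is an endothelial gene, the markers of that cell type were summed. The 6 endothelial markers summed to 1.28 to 3.83 CPM in thymic WT, 0.735 to 6.81 CPM in thymic CD25 KO, 1.80 to 1.93 CPM in splenic WT and 1.11 to 2.40 CPM in splenic CD25 KO samples, with Emcn at 0 in all groups but splenic WT. Cdh5, the endothelial cadherin, was 0.256 to 1.80 CPM in thymic WT samples, 0.105 to 2.45 CPM in thymic CD25 KO samples and at most 0.152 CPM in the spleen. The WT mouse with the most Acvrl1, replicate 3 (20.7 CPM), had an endothelial sum of 3.32 CPM, and replicate 1 (5.28 CPM) had 3.83 CPM. WT replicates 1 and 4 also had the highest myeloid and dendritic marker sums of the WT mice, 32.4 and 20.98 CPM against 10.5 to 15.9 CPM, whose part in the split was not tested. Gm16031 shares 2.98% of the exonic bases of Acvrl1 on the opposite strand.

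Acvr1b encodes ALK4, the main type I receptor for activin A, and follows Acvrl1 on the same strand 28.7 kb downstream (ENSMUSG00000000532.10, chr15:101174067-101213684). In splenic WT Tregs it was 34.7, 34.3, 40.4 and 35.5 CPM, and in splenic CD25 KO Tregs 28.8, 25.7, 25.6 and 28.8 CPM. All CD25 KO mice lay below the WT mice, by a small amount: the log2 fold change was -0.41 (SE 0.0711). In the thymus it was 34.3, 35.7, 35.3, 31.7 and 40.6 CPM in WT and 45.1, 31.1, 35.1, 32.1 and 28.1 CPM in CD25 KO Tregs. These ranges overlapped, and the log2 fold change of -0.04 (SE 0.110) turned to 0.05 after removal of the GC trend and to 0.03 without CD25 KO replicates 2 and 4.

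Acvr2a encodes a type II receptor for activins, and it was the type II gene with the largest thymic difference (ENSMUSG00000052155.5, chr2:48814109-48903269, plus strand). In thymic WT Tregs it was 23.4, 15.98, 18.1, 21.4 and 21.3 CPM, and in thymic CD25 KO Tregs 32.96, 32.2, 32.1, 29.9 and 41.1 CPM. All 5 CD25 KO values exceeded the highest WT value, and the log2 fold change was 0.76 (SE 0.115), or 0.83 without CD25 KO replicates 2 and 4. In the spleen it was 39.2, 31.7, 27.9 and 32.2 CPM in WT and 36.1, 36.6, 40.4 and 39.9 CPM in CD25 KO Tregs, groups that overlapped through WT replicate 1. The splenic log2 fold change was 0.22 (SE 0.0861), and the difference between tissues was -0.53 (SE 0.156).

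Acvr2a has the lowest GC content of the 8 receptors (39.9%, against a median of 49.0% for genes tested in the thymus), and with the GC trend removed its thymic log2 fold change was 0.50 (SE 0.0702). The 4 receptors of low GC content, Acvr2a, Acvr1c (40.1%), Bmpr2 (41.0%) and Bmpr1a (41.3%), all had lower thymic values after that correction. Orc4, a DNA replication gene on the opposite strand, shares 7.84% of the exonic bases of Acvr2a. Orc4 was 59.6 to 77.8 CPM in thymic WT and 85.6 to 123 CPM in thymic CD25 KO Tregs, and its part in the Acvr2a counts was not tested.

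Bmpr2 encodes the type II receptor for BMPs and had the highest CPM of the 8 in every group (ENSMUSG00000067336.6, chr1:59763400-59879014, plus strand). In the thymus it was 79.2, 51.0, 59.0, 70.8 and 80.6 CPM in WT and 84.4, 102, 81.2, 84.5 and 58.7 CPM in CD25 KO Tregs. In the spleen it was 77.4, 69.9, 77.7 and 75.8 CPM in WT and 79.6, 98.3, 82.0 and 90.0 CPM in CD25 KO Tregs. The thymic groups overlapped and the splenic groups did not, yet both differences were small, with log2 fold changes of 0.28 (SE 0.151) and 0.22 (SE 0.0662). The thymic value was 0.07 with the GC trend removed and 0.14 without CD25 KO replicates 2 and 4.

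Acvr2b encodes the second type II activin receptor and was near the limit of detection in the spleen (ENSMUSG00000061393.14, chr9:119402118-119434995, plus strand). In the thymus it was 1.36, 0.850, 1.66, 1.60 and 0.726 CPM in WT and 0.950, 1.52, 1.31, 1.31 and 0.315 CPM in CD25 KO Tregs. In the spleen it was 0.0775, 0.330, 0.129 and 0.0788 CPM in WT and 0.152, 0.108, 0.190 and 0.0950 CPM in CD25 KO Tregs, from 2 to 9 counts per mouse. The genotypes overlapped in both tissues, and the thymic log2 fold change was -0.17 (SE 0.358), or -0.52 (SE 0.428) without CD25 KO replicates 2 and 4. In the spleen Acvr2b failed edgeR's filter on low counts, and DESeq2 gave a log2 fold change of -0.20 with an SE of 0.807.

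**Figure D3:**
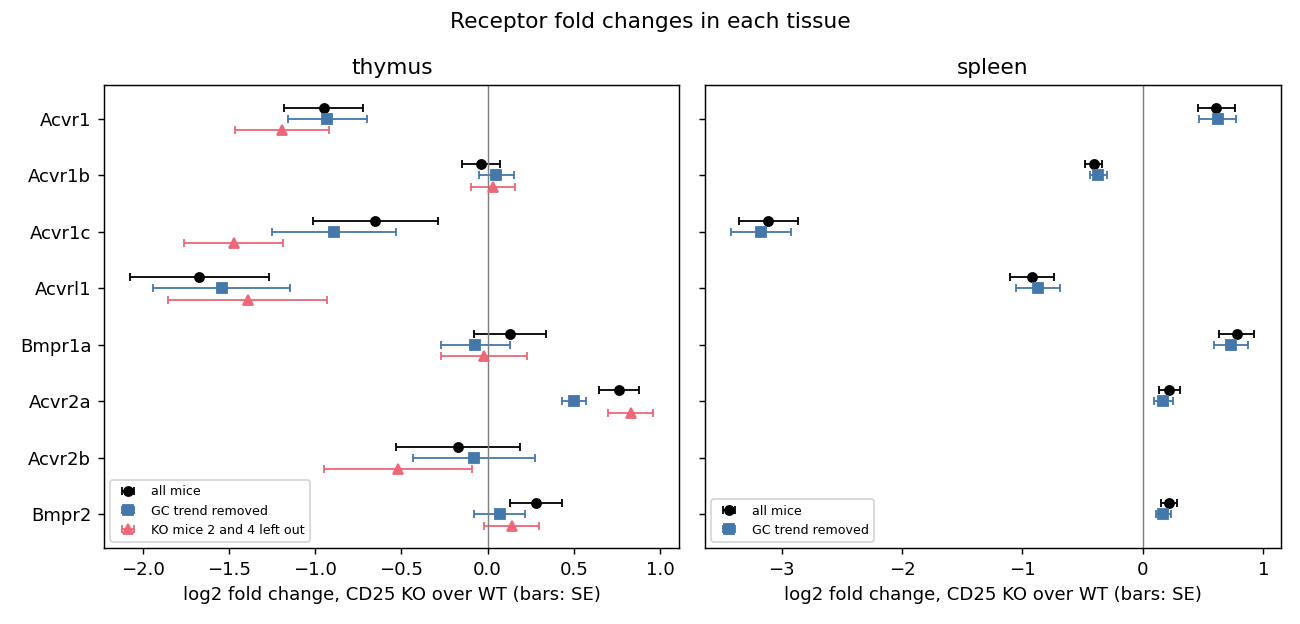
Log2 fold change of CD25 KO over WT Tregs (x axis) for the 8 receptors in thymus (left) and spleen (right, on its own scale), with SE as bars. Circles show all mice, squares the values after removal of each library's GC trend, and triangles the thymic values without CD25 KO replicates 2 and 4. Acvr1 lies at -0.95 in the thymus and 0.61 in the spleen, Acvr1c at -3.11 in the spleen, and Acvr2b has no splenic point.

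The levels of the receptors were compared with each other per kb of exon, since the transcripts differ in length. In thymic WT Tregs Acvr1b was highest at 8.04 CPM per kb, followed by Bmpr2 (3.79), Acvr2a (3.52) and Acvrl1 (2.75), which overlapped from one to the next. Bmpr1a (0.412), Acvr1c (0.408), Acvr2b (0.315) and Acvr1 (0.306) came last and also overlapped from one to the next. In thymic CD25 KO Tregs Acvr1b (7.76), Acvr2a (5.92) and Bmpr2 (4.56) overlapped from one to the next, and Acvr1 was lowest at 0.155 CPM per kb.

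In splenic WT Tregs the order was Acvr1b (8.20), Acvr2a (5.76) and Bmpr2 (4.18) without overlap, then Acvrl1 (0.974) and Bmpr1a (0.969), which overlapped, then Acvr1 (0.545), Acvr1c (0.277) and Acvr2b (0.0391). In splenic CD25 KO Tregs Acvr2a (6.73) and Acvr1b (6.16) overlapped at the top, and Bmpr1a (1.66) and Acvr1 (0.836) stood above Acvrl1 (0.512) without overlap. Acvr2b (0.0347) and Acvr1c (0.0317) came last. The place of Bmpr2 depended on the length used: per kb of the longest transcript its WT means were 5.28 CPM per kb for the thymus and 5.83 for the spleen and its CD25 KO means 6.36 and 6.78, above the mean of Acvr2a in all 4 groups and above that of Acvr1b in splenic CD25 KO Tregs. In splenic WT Tregs it then overlapped with Acvr2a (5.76). Per kb of exon, Acvr1b, Acvr2a and Bmpr2 together made up 69.7% to 91.0% of the summed level of the 8 receptors in all 18 mice.

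The summed type I level was 11.9 ± 2.11 CPM per kb for WT and 9.47 ± 1.64 for CD25 KO Tregs of the thymus (SD, n = 5 mice each), with 10.96 ± 0.650 and 9.20 ± 0.305 in the spleen (SD, n = 4 mice each). The summed type II level was 7.62 ± 1.23 and 10.8 ± 0.553 CPM per kb in the thymus and 9.98 ± 0.861 and 11.6 ± 0.557 in the spleen. Without CD25 KO replicates 2 and 4 the thymic CD25 KO sums were 9.895 ± 2.17 and 10.6 ± 0.124 CPM per kb (SD, n = 3 mice). By mean and per kb of exon, without GC correction, the type I sum was above the type II sum in WT and below it in CD25 KO Tregs. With the longest transcript as length this order held in the thymus and in splenic CD25 KO Tregs, whereas in splenic WT Tregs the sums were 11.45 ± 0.637 for type I and 11.64 ± 0.887 for type II (SD, n = 4 mice). Removal of the GC trend lowered the thymic log2 fold changes of the type II genes Acvr2a (0.76 to 0.50) and Bmpr2 (0.28 to 0.07). Sums with that trend removed are not given, so the order of type I and type II is not shown to hold after it.

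**Figure D4:**
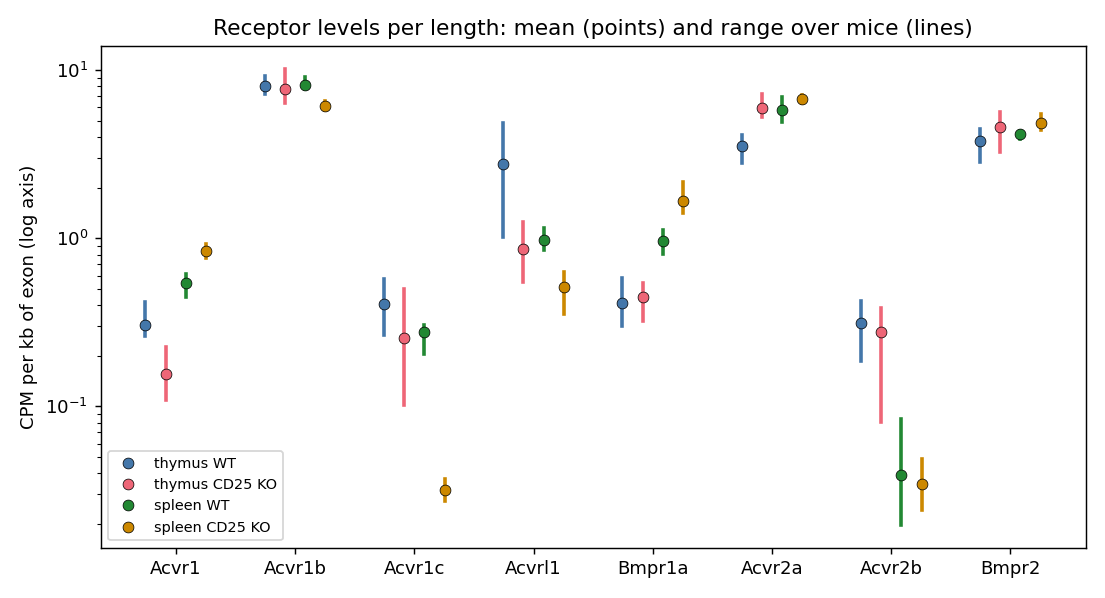
Level per length in CPM per kb of exon (y axis, log scale) of the 8 receptors in the 4 groups. Points are group means and lines the range over mice. Acvr1b, Acvr2a and Bmpr2 lie between 2.81 and 10.2 CPM per kb in every mouse, and splenic CD25 KO Tregs have the lowest mean of Acvr1c (0.0317).

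Spleen was compared with thymus as the mean of both genotypes by edgeR's quasi-likelihood test over 18686 genes. With Benjamini-Hochberg adjustment, 5 of the 7 receptors that had passed the filter on low counts in each tissue were called at FDR 0.01. Of all genes 58.2% were called, and of the 16214 that had passed the filter in each tissue 57.6%, so that a call was common. Acvr1 was higher in the spleen by 1.62 on the log2 scale (SE 0.129, adjusted p = 7.07e-10), Bmpr1a by 1.56 (SE 0.131, adjusted p = 1.59e-09) and Acvr2a by 0.45 (SE 0.0778, adjusted p = 3.59e-05). Acvr1 and Bmpr1a were above the thymic range in every splenic mouse. Lower in the spleen were Acvr1c, with a log2 difference of -1.78 (SE 0.263, adjusted p = 5.31e-06), and Acvrl1 (-1.12, SE 0.260, adjusted p = 0.000776). Bmpr2 (0.12, SE 0.0921, adjusted p = 0.267) and Acvr1b (-0.15, SE 0.0746, adjusted p = 0.0768) did not pass, but Acvr1b passed with the GC trend removed (-0.22, edgeR adjusted p = 0.00689). The same 5 receptors were called without thymic CD25 KO replicates 2 and 4. Acvr2b entered this fit through its thymic counts alone, so its log2 difference of -2.95 (SE 0.334) is a description with no test.

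Between the WT groups alone, the splenic values of Acvr1 and Bmpr1a remained higher by 0.83 and 1.24 on the log2 scale, and those of Acvr2b and Acvrl1 lower by the differences -2.94 and -1.50. The Acvr1c difference was -0.56 (edgeR adjusted p = 0.139) in WT mice, so that the value over both genotypes rested on the low splenic CD25 KO level.

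Acvr2b in the thymus was lowest in WT replicate 5 (0.726 CPM) and CD25 KO replicate 5 (0.315 CPM). These mice also had the lowest Siglech, a gene of plasmacytoid dendritic cells, in their group, at 3.50 and 1.68 CPM against 7.06 to 32.8 CPM in the other 8 thymic mice, and the lowest endothelial sums, 1.28 and 0.735 CPM. Among the other CD25 KO mice the order did not hold: replicate 2 had 1.52 CPM of Acvr2b and 9.08 CPM of Siglech, and replicate 1 had 0.950 and 32.4 CPM. Siglech was at most 0.158 CPM in the spleen. It was looked at because it was among the 3 genes most similar to Acvr2b over these same samples. Their likeness was therefore built in and gives no evidence on cell types. The part of other cells in the Acvr2b level was not tested.

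For each receptor, the 3 protein-coding genes with the most similar log2 CPM over the 18 samples were taken from 10899 genes. Pearson's r was highest for Bmpr1a with Itgav (0.980), an integrin chain, for Acvr1 with Nfil3 (0.975), a transcription factor, and S100a6 (0.974), and for Acvr2b with Tex9 (0.962), Emilin1 (0.940) and Siglech (0.939). Acvr2a was closest to Zfp945 and Rnf170 (0.959 each), Acvr1c to Adpgk (0.939) and Pus7 (0.928), and Acvrl1 to Tuba4a (0.915). Acvr1b was closest to Smurf1 (0.887), a ubiquitin ligase for SMADs and BMP receptors, and Bmpr2 had the least similar neighbours, led by Gpalpp1 (0.810). These values describe 18 points that fall into 4 groups and share the difference between tissues.

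The other genes of the pathway were followed in lists by role, 80 genes in all. In the thymus 3 of 37 tested were called (8.11%, against 6.16% of all genes), all lower in CD25 KO Tregs. In the spleen 6 of 38 were called (15.8%, against 9.45%), of which 4 were higher and 2 lower. Their thymic median log2 fold change was -0.06 and the splenic one -0.02, beside -0.002 and -0.006 over all genes. Adjusted p-values of pathway genes are edgeR's, adjusted over every gene tested. In the thymus edgeR called 0 of the related receptors (3 tested), co-receptors (4), SMADs (6), secreted inhibitors (3) and target genes (4), of which 1, 3, 1, 0 and 2 had an unadjusted p under 0.05, and DESeq2 called 1, a co-receptor. In the spleen edgeR called 0 of the BMP ligands (3 tested), co-receptors (4) and intracellular regulators (11), of which 3, 0 and 5 had an unadjusted p under 0.05, and DESeq2 called 2, both regulators.

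Among the activin-type ligands, the thymic test covered 2 of 10 and the splenic test 3. Gdf11, a ligand for ACVR2A and ACVR2B, was called in both tissues. It fell in the thymus from 38.6 ± 2.01 to 29.6 ± 2.29 CPM (SD, n = 5 mice each; log2 fold change -0.37, edgeR adjusted p = 0.00407) and rose in the spleen from 27.5 ± 1.96 to 36.4 ± 2.11 CPM (SD, n = 4 mice each; 0.41, edgeR adjusted p = 0.000638). The difference between tissues was 0.79 (edgeR adjusted p = 2.09e-05). This gene moved in the same pair of directions as the values of Acvr1. The thymic call was lost with the GC trend removed (-0.29, edgeR adjusted p = 0.0151), kept without CD25 KO replicates 2 and 4 (-0.35, edgeR adjusted p = 0.00712), and lost when any of 4 mice was left out (adjusted p of 0.0101 to 0.0139 without WT replicate 1, 2 or 5 or CD25 KO replicate 1). Inhba, the subunit of activin A, was at most 7 counts in any sample.

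Of 16 BMP ligands 3 were tested in each tissue. Bmp7 fell in the thymus from 5.54 ± 0.387 to 2.88 ± 0.755 CPM (SD, n = 5 mice each; log2 fold change -0.93, edgeR adjusted p = 0.00522), and was 39.8 ± 3.18 and 46.9 ± 3.31 CPM in splenic WT and CD25 KO Tregs (SD, n = 4 mice each), where it was not called. The difference between tissues was 1.18 (edgeR adjusted p = 0.000157). The thymic call was lost when any of 6 mice was left out (adjusted p of 0.0102 to 0.0146 without WT replicate 1, 2, 3 or 5 or CD25 KO replicate 1 or 2), with log2 fold changes between -0.96 and -0.89. Without CD25 KO replicates 2 and 4 together it held (-0.96, edgeR adjusted p = 0.00967).

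Of the related receptors, Tgfbr1, the type I receptor for TGF-beta, fell in the spleen from 115 ± 6.07 to 93.4 ± 9.44 CPM (SD, n = 4 mice each; log2 fold change -0.30, edgeR adjusted p = 0.00530). That call was lost when any of 6 of the 8 mice was left out (adjusted p of 0.0111 to 0.0164; it held without CD25 KO replicate 2 or 4). Per length, Tgfbr1 and Tgfbr2 were far above the 8 receptors, at 38.8 and 42.9 CPM per kb in thymic WT Tregs. Of the SMADs, Smad7, an inhibitory SMAD, fell in the spleen from 185 ± 10.8 to 152 ± 6.91 CPM (SD, n = 4 mice each; -0.28, edgeR adjusted p = 0.00189), a call lost with the GC trend removed (-0.23, edgeR adjusted p = 0.0116).

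Among 15 secreted inhibitors, 4 were tested in the spleen and 2 were called, both higher in CD25 KO Tregs. The others also had ranges without overlap but were not called. Nbl1 was higher (0.95 on the log2 scale, edgeR adjusted p = 0.0288) and Dand5 lower (-0.28, edgeR adjusted p = 0.241). Sostdc1, which binds BMPs, was 5.19 ± 0.893 CPM in splenic WT and 27.6 ± 8.77 CPM in splenic CD25 KO Tregs (SD, n = 4 mice each; log2 fold change 2.41, edgeR adjusted p = 6.58e-07), and Twsg1, which modulates BMP binding, was 89.3 ± 6.77 and 126.2 ± 22.4 CPM (0.50, edgeR adjusted p = 0.00184). The difference between tissues passed for Twsg1 (0.68, edgeR adjusted p = 0.00287), whose thymic log2 fold change of -0.17 was not called with all mice and was -0.32 (edgeR adjusted p = 0.00372) without CD25 KO replicates 2 and 4. Sostdc1 had at most 3 counts in every thymic sample. Set against 3 counts per library, its splenic mean over both genotypes (16.4 CPM) was at least 116-fold higher. That bound does not hold for splenic WT Tregs alone, whose mean was 5.19 CPM.

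Of 12 intracellular regulators, Fkbp1a, which encodes the protein FKBP12 that binds the GS box of type I receptors, was called in the thymus. It fell from 116 ± 14.2 to 82.7 ± 2.52 CPM (SD, n = 5 mice each; log2 fold change -0.48, edgeR adjusted p = 0.00237, or -0.46 and 0.00536 without CD25 KO replicates 2 and 4), and the difference between tissues was 0.65 (edgeR adjusted p = 0.000143). Skil, a SMAD repressor, was 459 ± 37.9 and 558 ± 29.5 CPM in the thymus and 231 ± 9.95 and 205 ± 12.3 CPM in the spleen and, of the comparisons of CD25 KO with WT, was called for the difference between tissues alone (-0.45, edgeR adjusted p = 0.00171), which did not pass with the GC trend removed (-0.28, edgeR adjusted p = 0.0115).

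Of 9 target genes 4 were tested, and Id2, a transcription inhibitor that BMP signals induce in many cells, rose in the spleen from 47.7 ± 5.49 to 88.6 ± 10.4 CPM (SD, n = 4 mice each; log2 fold change 0.90, edgeR adjusted p = 4.86e-06). In the thymus Id2 was 17.3 ± 6.17 and 12.4 ± 2.02 CPM (SD, n = 5 mice each) and was not called (log2 fold change -0.47, or -0.36 without CD25 KO replicates 2 and 4), and the difference between tissues was 1.38 (edgeR adjusted p = 0.000891). Id3 was 65.4 ± 6.09 and 61.9 ± 5.34 CPM in the thymus and 60.6 ± 7.53 and 52.7 ± 1.73 CPM in the spleen and was not called in either. The NK cell marker sums given above, in which 2 of 3 markers had at most 3 counts per sample, were also higher in splenic CD25 KO samples. Their part in the Id2 values was not tested.

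**Figure D5:**
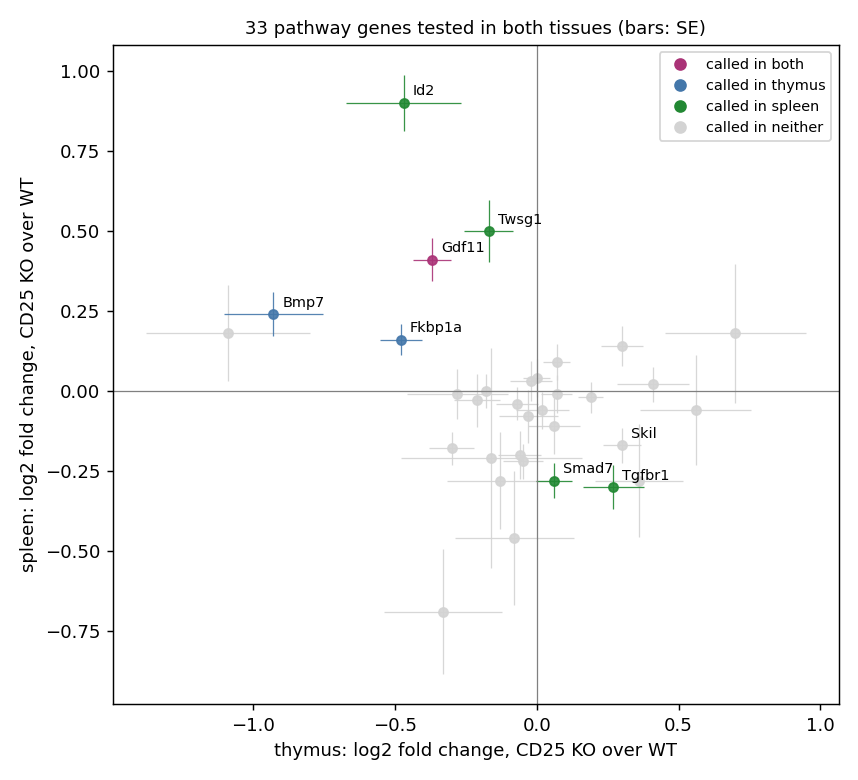
Log2 fold change of CD25 KO over WT Tregs in the thymus (x axis) and the spleen (y axis) for the 33 pathway genes tested in both tissues, with SE as bars. Colours show genes called at FDR 0.01 in both, in 1 or in neither tissue. Gdf11 (-0.37 and 0.41), Id2, Bmp7, Twsg1 and Fkbp1a have negative thymic and positive splenic values.

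For the difference between tissues, 6 of the 33 pathway genes tested in each tissue passed (18.2%, against 7.59% of all genes tested in each), also without thymic CD25 KO replicates 2 and 4. Of these, 5, Gdf11, Bmp7, Twsg1, Fkbp1a and Id2, had the larger value in the spleen and 1, Skil, in the thymus. For spleen against thymus as the mean of genotypes, 20 of these 33 passed (60.6%, against 57.6%), with 7 higher and 13 lower in the spleen. Among them Bmp7 was higher in the spleen by 3.43 on the log2 scale (edgeR adjusted p = 9.52e-18) and Id2 by 2.15 (edgeR adjusted p = 3.81e-12). Eng, Bambi, Mstn and Bmper failed the filter in 1 tissue and are given as a description. Eng, or endoglin, the partner of ACVRL1 on endothelial cells, was 3.34 to 9.70 CPM in thymic WT, 3.05 to 4.85 CPM in thymic CD25 KO and at most 0.709 CPM in splenic Tregs.

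Bambi, a pseudoreceptor that resembles type I receptors and lacks the kinase, had a log2 difference between spleen and thymus of -2.31. Mstn, which encodes myostatin, a ligand of ACVR2B, had 0 counts in every thymic sample and 7 to 24 counts in the spleen. Its splenic mean over both genotypes (0.58 CPM) was at least 4.09-fold higher than 3 counts per library. The bound does not hold for splenic WT Tregs alone (mean of 0.37 CPM). Bmper, a BMP-binding protein, had 13 to 37 counts in the thymus and at most 1 in the spleen. Against its thymic mean over both genotypes (1.13 CPM) it was at least 9.98-fold lower there.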

How the data were processed

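RNA-seq gene counts of Tregs from 18 mice were used, and the labels gave each sample's tissue and genotype. According to the study's methods and the submitters' processing notes, the authors aligned 75-base paired-end reads of ribosomal RNA-depleted total RNA to GRCm38 with STAR 2.5.0b, counted them on GENCODE M13 genes with featureCounts 1.5.0 and deposited the raw count table. Whether counting used strand was not given in the sources used here. Symbols, lengths and GC content came from GENCODE M21 (50376 of 50600 identifiers matched).

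The 2 genotypes were compared in each tissue in R 4.3.3 with edgeR 4.0.16 (filterByExpr, TMM, quasi-likelihood test, Benjamini-Hochberg adjustment over all genes tested, called at FDR 0.01). The difference between tissues and the spleen against thymus contrast used 1 fit of 18 samples. Standard errors were derived from the fold change and the F statistic. Printed CPM were scaled over all 18 samples. The GC correction removed each library's lowess trend (span 0.667) of log counts on GC content. The scripts were tested on simulated counts in which known changes had been placed. Exons of all transcripts of a gene were merged for length. Alternatives were RLE and upper-quartile scaling, DESeq2 1.42.0, other filters, the GC correction, FDR 0.05, a replicate block, 18 samples in 1 fit, WT samples alone and leaving out each mouse. Leaving out thymic CD25 KO replicates 2 and 4 together was added after the data had been seen.

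The receptors and gene lists were chosen with earlier results of these data known. Genes named were the 8 receptors, Il2ra, up to 3 called genes per list and direction with the largest fold change, and the 3 genes most similar to each receptor (average log2 CPM of at least 1, compared as log2 of CPM + 0.5). Mki67, Orc4, Cdh5, Lyz2, Itgax, Inhba, Id3, Tgfbr2 and the thymic Siglech values were added after values were seen. Floors of 3 counts cover counting error only.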

Additional observations from a re-analysis of the deposited data

Results flagged for a closer look

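Of 36 groups of 4 or 5 mice checked for a mouse far from the rest (Dixon's ratio at its 95% critical value), 4 had one, and chance flags about 1 in 20. They were Acvr1 in thymic WT replicate 5 (2.01 CPM, above the other 4), Acvr1c in splenic WT replicate 1 (1.90 CPM, below the other 3), Acvr2a in thymic CD25 KO replicate 5 (41.1 CPM, above the other 4) and Il2ra in splenic WT replicate 2 (488 CPM, below the other 3).

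The CD25 KO effect differed between spleen and thymus at FDR 0.01 by edgeR in 6.98% of all genes. For the receptors the difference was part of how they were chosen, so 1.58 for Acvr1 and -2.44 for Acvr1c are descriptions with no test. Among pathway genes it was called for Id2 (1.38), Bmp7 (1.18), Gdf11 (0.79), Twsg1 (0.68), Fkbp1a (0.65) and Skil (-0.45). With single mice left out the Acvr1c value was -2.64 to -2.05, and it lay outside FDR 0.01 without splenic CD25 KO replicate 1, 2 or 4.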

How the results depend on the processing

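The 7 receptors tested in the spleen kept the direction of their splenic fold changes, and Acvr1, Acvr1c, Acvrl1, Acvr2a and Bmpr2 that of their thymic ones, under every alternative run. In the thymus 1 receptor and 3 pathway genes were called among 1047 genes. DESeq2 called 3, 8 and 2730, a fit of all 18 samples 3, 9 and 2881, an FDR of 0.05 3, 9 and 3951, and leaving out thymic CD25 KO replicates 2 and 4 gave 3, 5 and 2008. Upper-quartile scaling called 5 pathway genes and no filter on low counts 2 receptors. Without single mice the counts were 1 to 2, 1 to 4 and 371 to 1087. In the spleen a fit of all 18 samples called 2 receptors and 795 genes in place of 4 and 1651, FDR 0.05 called 14 pathway genes in place of 6 and 3001 genes, and single mice left out gave 1099 to 1723 genes. For the difference between tissues (2 receptors, 6 pathway genes and 1305 genes), DESeq2 called 10 pathway genes and 2188 genes, FDR 0.05 10 and 3149, and leaving out both thymic mice 2307 genes. A minimum of 10 counts in every sample left 1 receptor called, since Acvr1c was filtered out, and single mice left out gave 1 to 2 receptors and 817 to 1489 genes.

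Replicate numbers are shared by the thymic groups but did not pair the mice: deviations of same-numbered mice correlated at -0.239 to 0.144, and 1 of 5 WT mice was closest to its own number. With the replicate number as a block, 209 genes were called, 204 of them among the 1047, and 1 pathway gene. With the block and the GC correction together 229 genes and 0 pathway genes were called (edgeR, with 12 of 37 at an unadjusted p under 0.05), and Acvr2a was called in both. With the GC correction alone, 582 of the 1047 genes stayed among 798 called.

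For spleen against thymus in WT mice alone, Acvr1b was 0.03 (edgeR adjusted p = 0.847) and Twsg1 -0.00304 (edgeR adjusted p = 0.982), turned from -0.15 and 0.34. With the longest transcript as length the levels of Bmpr2 and Acvr1 moved by more than the SD in all 4 groups. The cause of these changes was not tested. At 2 to 9 counts, the splenic depth limits any statement on Acvr2b, whose difference between tissues moved from -0.03 to 0.68 without splenic WT replicate 2.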
